A study of Mus musculus with 20 samples.

Results

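The genes described here are 34 amino acid transporter genes of the mouse, taken by symbol from the SLC1, SLC3, SLC6, SLC7, SLC36, SLC38 and SLC43 families, out of 57126 genes counted in hippocampal RNA. Of the 34, 33 passed the filter on low counts that left 18648 genes for testing. The RNA came from male C57BL/6 mice without adrenal glands, in 20 libraries labelled as 5 biological replicates of each of 4 groups. Knockin mice are homozygous for an altered exon 2 of Nr3c1, the glucocorticoid receptor gene. In that exon the start codons of 7 shorter receptor proteins (GRB, 3 GRC forms and 3 GRD forms) are mutated and the full-length form, GRA, is left. Wild-type mice carry the unmodified gene and make the full-length and the shorter forms. The adrenal glands, the main source of glucocorticoid, were removed from every mouse at about 2.5 months of age. After 2 weeks the mice were injected intraperitoneally with dexamethasone, a synthetic glucocorticoid, at 1 mg per kg or with phosphate-buffered saline (PBS), and the hippocampus was taken 6 h later. The comparisons are therefore dexamethasone against PBS in knockin mice, the same in wild-type mice, knockin against wild-type with either injection, and the difference between the 2 dexamethasone responses. The labels give no restriction of the allele to a cell type, and no group lacks the receptor.

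Amino acid carriers move their substrates across the plasma membrane, or out of lysosomes and vesicles, by coupling to sodium, chloride or proton gradients, by exchange, or by facilitated diffusion. In brain, sodium-coupled carriers of the SLC38 family pass glutamine from astrocytes to neurons, where it is a precursor of glutamate and GABA. Large neutral amino acids enter through exchangers built from an SLC7 light chain and an SLC3 heavy chain at the blood-brain barrier and on neurons and glia, and carriers of the lysosome report amino acid supply to the growth-controlling kinase mTORC1.

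The libraries held between 11493014 (knockin PBS replicate 5) and 48267708 (knockin dexamethasone replicate 1) gene-assigned read pairs. The labelled tissue was checked against 6 neuron markers, of which Snap25 was at 2124 to 2674 CPM (counts scaled to a common library total), and against Prox1 of granule neurons, which was at 134 to 173 CPM. Other hippocampal neuron markers varied more between libraries, Calb1 from 62.2 to 151 CPM, Dsp from 27.2 to 90.5 CPM and Spink8 from 1.75 to 19.9 CPM, and no library lacked any of them. Nr3c1 averaged 111 ± 8.68 CPM in knockin dexamethasone, 163 ± 24.0 in knockin PBS, 98.5 ± 8.26 in wild-type dexamethasone and 135 ± 21.7 in wild-type PBS libraries (SD, n = 5 each), and a count summed over its exons does not read the codons that were changed. Some libraries stand apart. By 11 liver markers, without Ttr because it is shared with the choroid plexus list, the most liver transcripts were in wild-type PBS replicates 1 and 2. Knockin dexamethasone replicate 2 and wild-type PBS replicate 4 held the most choroid plexus transcripts. With Ttr included, these also had the highest liver sums (1298 and 1660 CPM). The knockin dexamethasone and knockin PBS libraries numbered 4 were the highest or lowest of their group for 21 and 25 of the 33 tested transporters, against 7 to 18 in the other 18 libraries. Calls lost when these are left out are named with their result.

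Expressed per transcript length as TPM (computed from the counts and the exonic lengths in the files), the transporters spanned from 249.6 TPM to 0.126 TPM over the 20 libraries. Slc6a17, a carrier of neutral amino acids into synaptic vesicles, had the highest level at 248 ± 9.11 TPM in knockin dexamethasone, 246 ± 11.5 in knockin PBS, 253 ± 6.71 in wild-type dexamethasone and 251 ± 9.26 in wild-type PBS libraries (SD, n = 5 each). Next came Slc3a2, the heavy chain also known as 4F2hc or CD98, with 99.5 ± 1.00, 101 ± 2.55, 99.5 ± 2.99 and 102 ± 4.67 TPM in the same order of groups. Each of these stood apart from the next gene in all 20 libraries, though the highest library of Slc6a6 (95.4 TPM) was above the lowest of Slc3a2 (94.7 TPM). Below them the order was Slc7a14, Slc6a6, Slc6a15, Slc7a5, Slc7a8 and Slc38a2 (means of 83.3, 80.2, 74.1, 70.2, 67.4 and 65.3 TPM), and each of these neighbours overlapped in its library range with the next. The only other neighbours without overlap were Slc7a2, the 23rd gene at 15.4 TPM, and Slc38a9, the 24th at 7.10 TPM. The lowest were Slc38a4 (0.935 TPM), Slc43a1 (0.515 TPM) and Slc3a1 (0.126 TPM). Slc3a1, the heavy chain rBAT known from kidney and gut, had 44 read pairs in all 20 libraries together and was not tested. Of its exonic bases 26.5% are shared with Prepl, on the opposite strand. Pairs were counted without strand and with no option set for reads that overlap several genes. Pairs in shared bases may therefore be missing from the count and lower the TPM. The same applies to other transporters that share exonic bases with a gene on the opposite strand, among them Slc6a9, Slc7a10 and Slc7a7. The size of this effect was not tested. The summed level of the 34 genes was 1296 ± 19.4 TPM in knockin dexamethasone, 1313 ± 30.4 in knockin PBS, 1317 ± 21.4 in wild-type dexamethasone and 1338 ± 26.8 in wild-type PBS libraries, and the library ranges of the 4 groups overlapped.

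**Figure D1:**
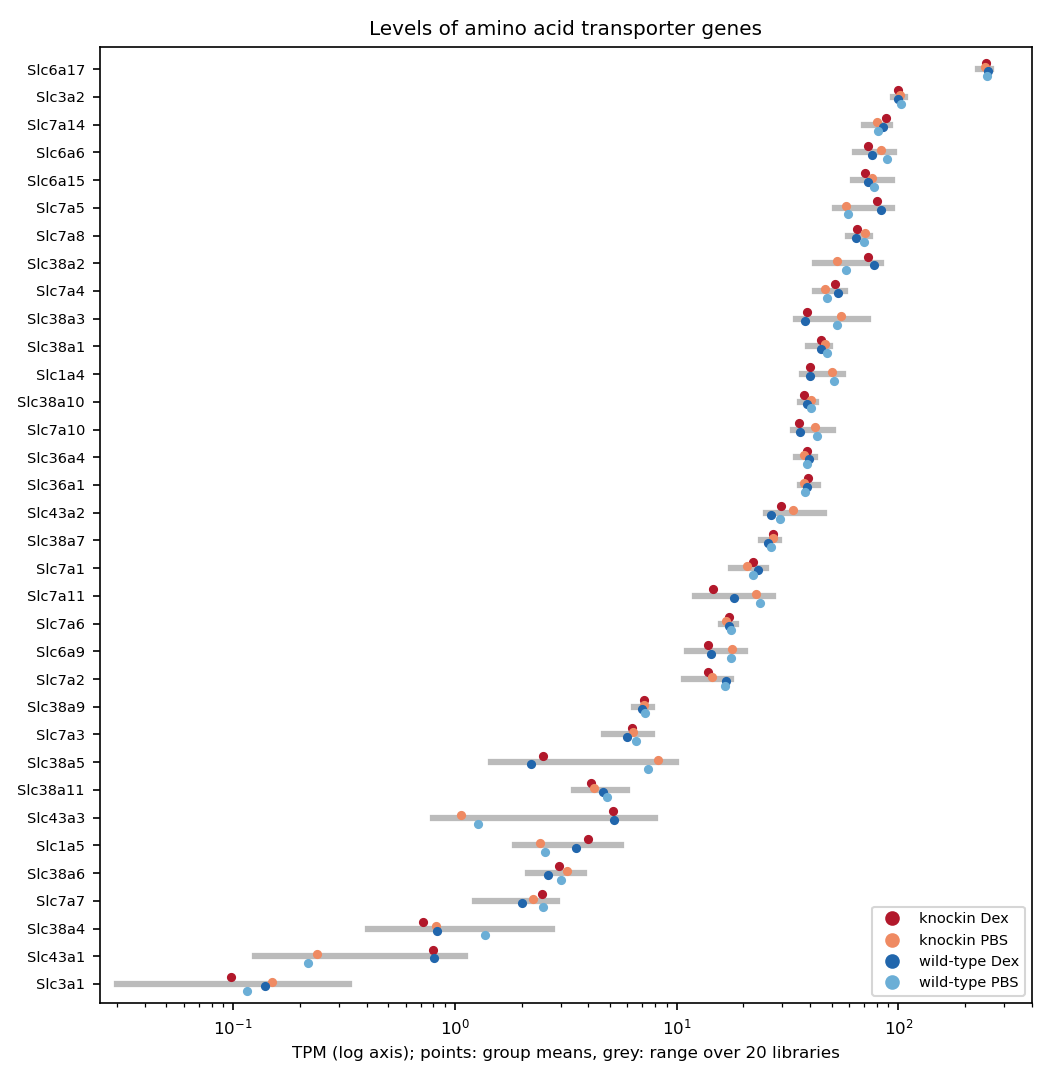
Level of each transporter gene in TPM (log axis), highest at the top; coloured points are the means of the 4 groups (n = 5 each) and grey bars the range over 20 libraries (the lowest library of Slc3a1, at 0, is off the axis). The bars of neighbours overlap except below Slc6a17, Slc3a2 and Slc7a2, and the group means separate most for Slc38a5, Slc43a3 and Slc43a1.

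Dexamethasone changed transporters of several families in both directions, and 10 of them passed the test in both genotypes. Slc43a3, Slc43a1, Slc7a5 and Slc38a2 rose in both, to 4.80, 3.16, 1.39 and 1.39 times the PBS level in knockin and to 4.05, 3.49, 1.43 and 1.36 times in wild-type mice. Slc38a5, Slc7a11, Slc38a3, Slc6a9, Slc1a4 and Slc7a10 fell in both, to 0.320, 0.639, 0.710, 0.786, 0.806 and 0.856 of the PBS level in knockin and to 0.316, 0.788, 0.735, 0.830, 0.799 and 0.862 in wild-type mice. In whole tissue, fewer cells of a type and less RNA per cell cannot be told apart.

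In knockin mice 12 of the 33 tested transporters passed the test, 6 higher and 6 lower, where 10.0% of the 18648 genes tested passed (5.28% higher and 4.71% lower). In wild-type mice 11 of 33 passed, 5 higher and 6 lower, where 9.21% of tested genes passed (5.27% higher and 3.94% lower). The test is edgeR's quasi-likelihood F test, and a gene is called at a Benjamini-Hochberg adjusted p below 0.05 over all genes tested. Dexamethasone and PBS libraries did not overlap for 7 transporters in knockin and 8 in wild-type mice, where 8.68% and 8.22% of tested genes did not overlap. The median log2 fold change of the tested transporters was -0.01 in knockin and -0.02 in wild-type mice, beside 0.00 over all genes in both. The calls in both genotypes numbered 10, all in the same direction, 2 were made in knockin mice only (Slc1a5 and Slc7a14) and 1 in wild-type mice only (Slc7a4), and 20 transporters were called in neither. The share of all tested genes called in both genotypes was not computed. Each call was recomputed under 30 other settings of the filter, scaling, test and libraries. The wild-type count fell to 6 without PBS replicate 4 and to 7 without PBS replicate 3, dexamethasone replicate 1 or dexamethasone replicate 4, while the knockin count stayed between 10 and 13 when any single library was left out and was 8 when the 10 knockin libraries were fitted alone.

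**Figure D2:**
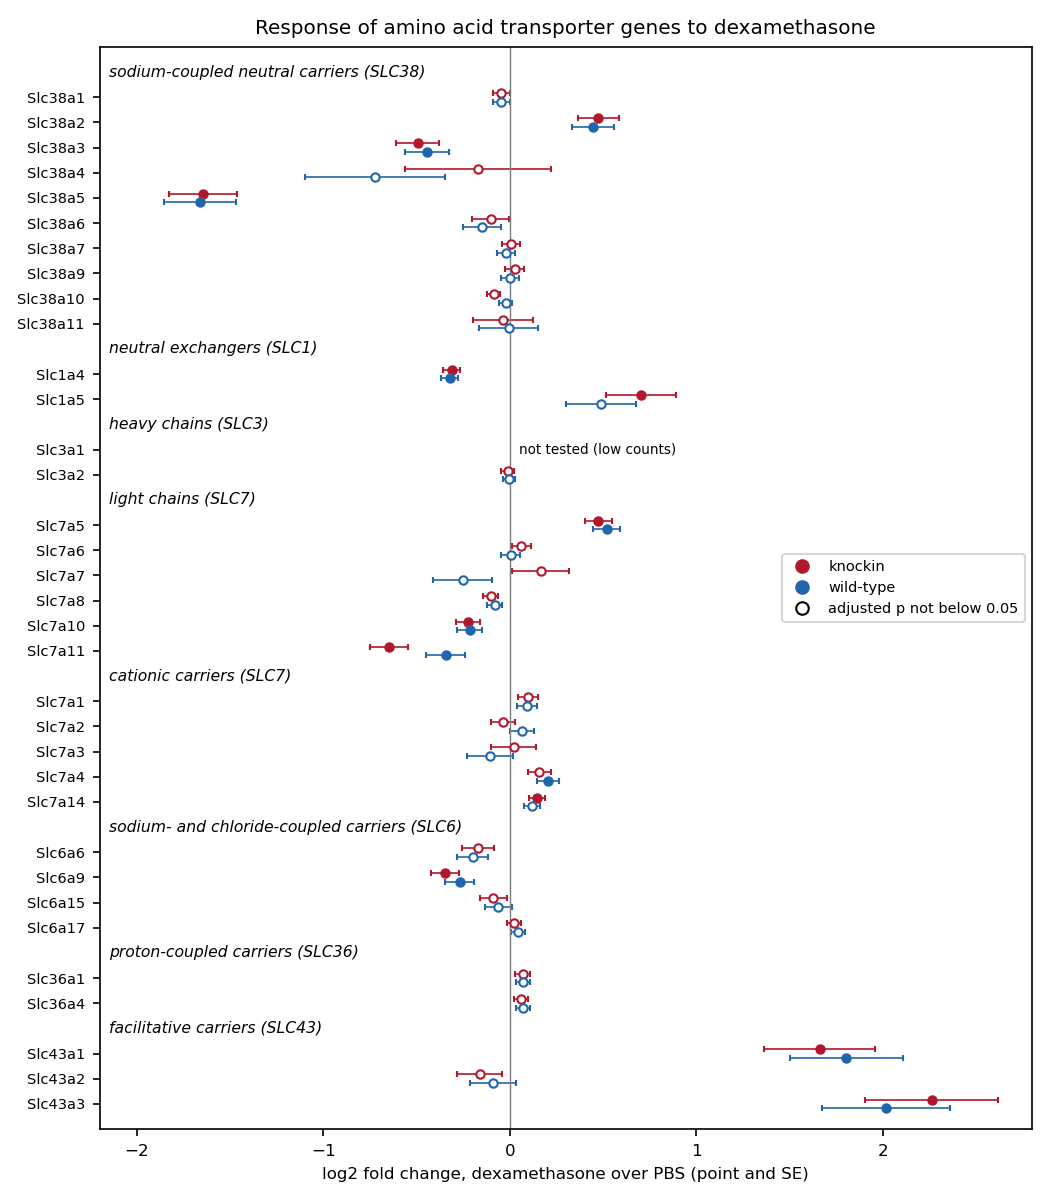
Dexamethasone response of each tested transporter by family (log2 fold change, dexamethasone over PBS, edgeR; bars are the SE), knockin in red above wild-type in blue. Filled points have an adjusted p below 0.05; red and blue lie side by side in most rows, with Slc43a3 and Slc43a1 farthest to the right and Slc38a5 farthest to the left, and Slc7a7, Slc38a4 and Slc7a11 show the widest gaps between the genotypes.

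Promoter sequence of 24 of the 34 genes was found, as 36 RefSeq promoters (GRCm38.p6, 250 bases before to 50 after an annotated start), and searched on both strands for 4 motifs. The 10 genes without one include Slc43a3, Slc7a5 and Slc38a3, called in both genotypes, and Slc1a5 and Slc7a4, called in a single genotype. The palindromic glucocorticoid response element, made of the arm AGAACA and its reverse complement 3 bases apart, was in 0 of the 36 (in 3 of all 32851 promoters, 0.00913%), and the arm AGAACA alone in 9 (25.0%, beside 19.0% of all promoters). The amino acid response element TGATGNAA, the motif bound by the stress factor ATF4, was in 4 promoters of Slc1a4, Slc7a11 and Slc7a7 (11.1%, beside 3.97%), and the E-box CACGTG in 5, those of Slc36a1, Slc38a5, Slc38a7, Slc43a1 and Slc7a14 (13.9%, beside 7.15%). Promoters of Slc7a7 overlap, so that a single arm is counted in 3 of the 9 and a single response element in 2 of the 4. No 2 matches overlapped in the promoters printed here. These are counts of letters in short windows, not sites shown to be bound. The stretches below, 150 bases before to 30 after the start, 5′ to 3′ along the gene, belong to the 4 called genes of both genotypes with a response element or E-box, and capitals mark those matches. Slc38a5 and Slc43a1 are on the plus strand (chrX:8271231-8271410 and chr2:84840173-84840352), and Slc1a4 and Slc7a11 on the minus strand (chr11:20332684-20332863 and chr3:50443584-50443763).
Slc38a5: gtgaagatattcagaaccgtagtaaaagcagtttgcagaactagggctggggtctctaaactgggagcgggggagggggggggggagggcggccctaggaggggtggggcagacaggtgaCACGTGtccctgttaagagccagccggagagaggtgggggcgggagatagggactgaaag
Slc43a1: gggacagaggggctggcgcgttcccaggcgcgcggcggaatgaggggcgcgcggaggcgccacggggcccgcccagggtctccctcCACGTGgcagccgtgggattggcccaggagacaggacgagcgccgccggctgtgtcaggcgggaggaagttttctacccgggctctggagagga
Slc1a4: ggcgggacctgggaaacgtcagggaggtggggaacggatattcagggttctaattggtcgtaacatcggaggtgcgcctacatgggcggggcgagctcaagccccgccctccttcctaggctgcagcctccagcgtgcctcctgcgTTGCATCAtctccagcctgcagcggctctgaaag
Slc7a11: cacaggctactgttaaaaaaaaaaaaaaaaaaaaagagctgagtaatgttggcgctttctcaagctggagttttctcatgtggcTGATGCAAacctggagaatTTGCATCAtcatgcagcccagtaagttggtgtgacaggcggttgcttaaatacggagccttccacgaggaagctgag
The E-box starts at position -30 in Slc38a5, a gene that fell, and at -64 in Slc43a1, a gene that rose, counting the start as 0. Slc1a4 holds its response element at -4, on the reverse strand, across the start. Slc7a11 holds 2, at -66 and -47, facing opposite ways, and farther upstream, outside the stretch shown, an arm of the receptor site at -185.

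Among the 10 sodium-coupled neutral carriers of the SLC38 family, Slc38a5 and Slc38a3 fell and Slc38a2 rose with dexamethasone in both genotypes. Slc38a5 and Slc38a3 encode the system N carriers SNAT5 and SNAT3, which carry glutamine, histidine and asparagine in exchange for protons and can run in either direction. Slc38a5 (ENSMUSG00000031170.15, mm39 chromosome X, 8137390 to 8146418, plus strand) had 2.16, 1.59, 1.45, 2.42 and 2.02 CPM in knockin dexamethasone libraries, against 5.51, 7.56, 6.84, 4.20 and 7.05 CPM in knockin PBS libraries. In wild-type mice it had 1.12, 2.04, 2.22, 1.15 and 1.92 CPM in wild-type dexamethasone libraries, against 5.69, 4.73, 4.79, 7.15 and 5.24 CPM in wild-type PBS libraries. Every dexamethasone library was below every PBS library in both genotypes. The response was, as a log2 fold change, -1.64 (SE 0.18, adjusted p = 6.31e-07 by edgeR) in knockin and -1.66 (SE 0.19, adjusted p = 1.4e-06 by edgeR) in wild-type mice, and the call held in all 30 other settings.

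Slc38a3, the more abundant of the pair and known from astrocytes (ENSMUSG00000010064.16, mm39 chromosome 9, 107527833 to 107546167, minus strand), had 44.2, 47.1, 43.9, 60.8 and 42.1 CPM in knockin dexamethasone libraries, against 59.6, 56.2, 68.8, 88.4 and 62.4 CPM in knockin PBS libraries. Its wild-type values were 49.0, 45.3, 44.8, 45.2 and 46.7 CPM in wild-type dexamethasone libraries, against 59.6, 56.9, 63.6, 71.6 and 63.9 CPM in wild-type PBS libraries. The groups did not overlap in wild-type mice, and in knockin mice they overlapped through dexamethasone replicate 4 alone. The fitted log2 fold change was -0.49 (SE 0.11, adjusted p = 0.00793 by edgeR) in knockin and -0.44 (SE 0.12, adjusted p = 0.0201 by edgeR) in wild-type mice. The knockin call was lost when only knockin libraries were fitted (edgeR adjusted p = 0.0791). The wild-type call was lost without PBS replicate 4 (edgeR adjusted p = 0.0505) and without the libraries richest in choroid plexus transcripts (0.0636). In TPM, the ratio of Slc38a5 to Slc38a3 was 0.0651 ± 0.0120 in knockin dexamethasone, 0.156 ± 0.0515 in knockin PBS, 0.0589 ± 0.0192 in wild-type dexamethasone and 0.139 ± 0.0163 in wild-type PBS libraries (SD, n = 5 each). Beside these falls, the 8 astrocyte markers summed to 6097 to 6728 CPM in knockin dexamethasone, 6089 to 6517 in knockin PBS, 6010 to 6235 in wild-type dexamethasone and 6103 to 6442 in wild-type PBS libraries, with none at 0 and with 1 marker higher (Aldh1l1) and 1 lower (Aqp4) in each genotype. Most of each astrocyte sum was Slc1a2, at 4400 to 5010 CPM over the 20 libraries. It is itself an amino acid carrier, and it is named here after its values were seen. The 9 endothelial markers summed to 256 to 294, 268 to 323, 262 to 310 and 294 to 328 CPM in the same order of groups, with none at 0. Their part in the results was not tested.

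Slc38a2 encodes SNAT2, the system A carrier of alanine, serine and glutamine that cells raise when amino acids run short (ENSMUSG00000022462.8, mm39 chromosome 15, 96585273 to 96597611, minus strand). It had 129, 125, 128, 89.8 and 113 CPM in knockin dexamethasone libraries, against 85.1, 86.0, 82.7, 67.0 and 102 CPM in knockin PBS libraries, with only dexamethasone replicate 4 inside the PBS range. In wild-type mice the values were 110.0, 135, 132, 113 and 130.0 CPM in wild-type dexamethasone libraries, against 82.4, 105, 90.4, 83.1 and 92.0 CPM in wild-type PBS libraries, without overlap. This was a log2 fold change of 0.48 (SE 0.11, adjusted p = 0.00859 by edgeR) in knockin and 0.45 (SE 0.11, adjusted p = 0.0145 by edgeR) in wild-type mice. The wild-type call held in all 30 other settings, and the knockin call in 29, the exception being the fit to knockin libraries alone (edgeR adjusted p = 0.0574).

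Slc38a2 lies between Slc38a1 and Slc38a4 on chromosome 15 (mm39, 96469299 to 96540794 for Slc38a1 and 96892701 to 96953837 for Slc38a4), and neither neighbour passed the test. Slc38a1, the system A carrier SNAT1 of neurons, averaged 165 ± 3.05 CPM in knockin dexamethasone, 171 ± 4.70 in knockin PBS, 165 ± 15.6 in wild-type dexamethasone and 171 ± 6.47 in wild-type PBS libraries (SD, n = 5 each). Its log2 fold change was -0.05 in each genotype, with a 95% interval of -0.14 to 0.05 in knockin and -0.14 to 0.05 in wild-type mice. The other family members were Slc38a7, a lysosomal exporter of glutamine and asparagine, Slc38a9, the lysosomal arginine sensor of mTORC1, and Slc38a6, Slc38a10 and Slc38a11. None of these was called, and their log2 fold changes lay between -0.10 and 0.03 in knockin and between -0.15 and 0.00 in wild-type mice.

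Slc38a4, the system A carrier SNAT4 known as a liver and placenta gene, was rare, and its highest libraries were those with the most liver transcripts. It had 0.921, 0.889, 0.986, 1.23 and 1.08 CPM in knockin dexamethasone libraries, against 1.14, 1.43, 0.954, 0.960 and 1.30 CPM in knockin PBS libraries. Its wild-type levels were 0.578, 1.85, 1.26, 1.46 and 0.726 CPM in wild-type dexamethasone libraries, against 3.74, 2.75, 0.825, 1.22 and 0.911 CPM in wild-type PBS libraries. The 2 highest, wild-type PBS replicates 1 and 2, were also the libraries with the most liver RNA: 11 liver markers (Alb, Apoa1 and others, without Ttr) summed to 220.4 and 132 CPM there, against 4.24 to 49.1 CPM in the other 18 libraries, where Slc38a4 did not exceed 1.85 CPM. Of the 11, Apob and Apoc3 were at 0 in 1 library each and Serpina1c in 5. The wild-type log2 fold change of Slc38a4 was -0.72 (SE 0.37, adjusted p = 0.296 by edgeR), and without those 2 libraries it was 0.24 (adjusted p = 0.707). In knockin mice it was -0.17 (SE 0.39, adjusted p = 0.871 by edgeR). The gene was called in no comparison, and how much of its level is RNA of another tissue was not tested.

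**Figure D3:**
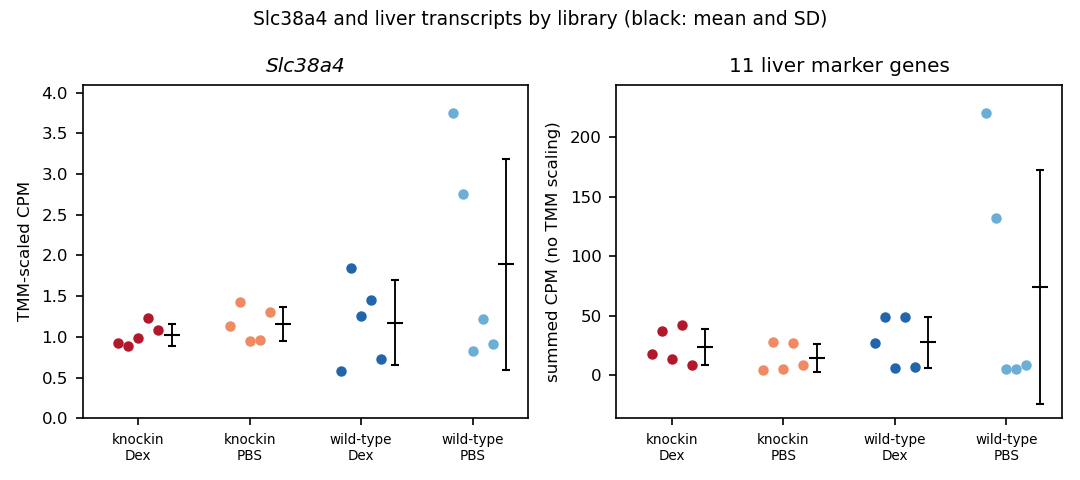
Slc38a4 (left, TMM-scaled CPM) and the sum of 11 liver marker genes without Ttr (right, CPM of the library total) in each of the 20 libraries (points, in replicate order), with mean and SD per group in black. The same 2 wild-type PBS libraries, replicates 1 and 2, are highest in both panels, at 3.74 and 2.75 CPM for Slc38a4 and 220.4 and 132 CPM for the liver genes.

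Of the 2 neutral exchangers of the SLC1 family, Slc1a4 fell in both genotypes and Slc1a5 rose in knockin mice. Slc1a4 encodes ASCT1, which exchanges serine, alanine and threonine and supplies serine to neurons (ENSMUSG00000020142.13, mm39 chromosome 11, 20252180 to 20282713, minus strand; its promoter holds the response element shown above). It had 56.4, 49.0, 57.5, 54.1 and 52.6 CPM in knockin dexamethasone libraries, against 68.6, 69.7, 70.2, 61.2 and 65.0 CPM in knockin PBS libraries. In wild-type mice it had 52.9, 54.6, 55.5, 51.9 and 53.4 CPM in wild-type dexamethasone libraries, against 66.1, 67.5, 71.8, 65.2 and 64.9 CPM in wild-type PBS libraries. No dexamethasone library reached a PBS library in either genotype. The log2 fold change was -0.31 (SE 0.04, adjusted p = 1.3e-05 by edgeR) in knockin and -0.32 (SE 0.04, adjusted p = 1.01e-05 by edgeR) in wild-type mice, and the calls held in all 30 other settings.

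Slc1a5 encodes ASCT2, a glutamine exchanger of dividing cells, and its level was low, at 3.11 TPM over all libraries (ENSMUSG00000001918.18, mm39 chromosome 7, 16515265 to 16532199, plus strand). It had 2.85, 4.07, 3.58, 5.43 and 3.10 CPM in knockin dexamethasone libraries, against 2.06, 1.75, 2.12, 3.60 and 1.91 CPM in knockin PBS libraries. Among wild-type libraries it had 3.62, 4.09, 3.38, 3.07 and 2.49 CPM in wild-type dexamethasone libraries, against 2.23, 2.45, 2.60, 2.13 and 2.34 CPM in wild-type PBS libraries. The groups overlapped in knockin mice through PBS replicate 4 and in wild-type mice through dexamethasone replicate 5. The response was, as a log2 fold change, 0.70 (SE 0.19, adjusted p = 0.0124 by edgeR) in knockin mice, which passed, and 0.49 (SE 0.19, adjusted p = 0.118 by edgeR) in wild-type mice, which did not. The difference between the genotypes was 0.21 (SE 0.26, adjusted p = 1.0 by edgeR), so the calls do not show that the responses differ. The knockin call was lost without dexamethasone replicate 4 (edgeR adjusted p = 0.0693) and with knockin libraries alone (0.0697), and without both knockin libraries numbered 4 the knockin log2 fold change was 0.95 and the wild-type response passed (0.48, adjusted p = 0.0231), as it did with wild-type libraries alone (0.49, adjusted p = 0.0380).

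The tested heavy chain, Slc3a2, did not pass the test, while 3 of the light chains that pair with heavy chains changed, in both directions. Slc3a2 (ENSMUSG00000010095.14, mm39 chromosome 19, 8684246 to 8700733, minus strand) ranged from 97.3 to 109 CPM over the 20 libraries. It averaged 104 ± 1.83 CPM in knockin dexamethasone, 105 ± 2.49 in knockin PBS, 103 ± 4.23 in wild-type dexamethasone and 103 ± 3.87 in wild-type PBS libraries (SD, n = 5 each). Its log2 fold change was -0.01 (SE 0.03, adjusted p = 0.905 by edgeR) in knockin mice, with a 95% interval of -0.08 to 0.06, and its 95% interval in wild-type mice was -0.07 to 0.07. Of the 6 light chains, Slc7a5 rose and Slc7a10 and Slc7a11 fell in both genotypes.

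Slc7a5 encodes LAT1, which exchanges leucine, phenylalanine and other large neutral amino acids at the blood-brain barrier (ENSMUSG00000040010.11, mm39 chromosome 8, 122607889 to 122634433, minus strand). It had 90.1, 99.3, 96.6, 108 and 91.8 CPM in knockin dexamethasone libraries, against 68.2, 62.3, 70.0, 79.7 and 68.5 CPM in knockin PBS libraries. In wild-type mice it had 102, 115, 86.8, 101 and 97.9 CPM in wild-type dexamethasone libraries, against 73.7, 75.5, 64.4, 65.7 and 70.6 CPM in wild-type PBS libraries. All dexamethasone libraries lay above all PBS libraries of their genotype. The fitted log2 fold change was 0.48 (SE 0.07, adjusted p = 6.66e-05 by edgeR) in knockin and 0.52 (SE 0.07, adjusted p = 2.8e-05 by edgeR) in wild-type mice, and both calls held in all 30 other settings.

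Slc7a11 encodes xCT, which takes up cystine in exchange for glutamate and feeds glutathione synthesis (ENSMUSG00000027737.11, mm39 chromosome 3, 49846975 to 50398063, minus strand; promoter above). It had 47.6, 50.4, 54.8, 41.6 and 52.1 CPM in knockin dexamethasone libraries, against 86.6, 70.3, 82.8, 66.8 and 78.2 CPM in knockin PBS libraries, without overlap. The wild-type values were 62.1, 66.5, 63.6, 49.0 and 65.0 CPM in wild-type dexamethasone libraries, against 63.2, 76.8, 87.3, 89.2 and 74.3 CPM in wild-type PBS libraries, where 3 dexamethasone libraries exceeded the lowest PBS library, replicate 1. The log2 fold change was -0.65 (SE 0.10, adjusted p = 0.000295 by edgeR) in knockin mice, and the call held in all 30 other settings. In wild-type mice it was -0.34 (SE 0.10, adjusted p = 0.0437 by edgeR), and the call held in 15 of 30. It was lost without PBS replicate 2, 3, 4 or 5 or dexamethasone replicate 1, 3, 4 or 5 of the wild-type group (adjusted p from 0.0576 to 0.128), and without knockin PBS replicate 5 or knockin dexamethasone replicate 1, 2 or 5 (0.0515 to 0.0540). It was also lost with no low-count filter (0.0941), with wild-type libraries alone (0.0800) and without the libraries richest in choroid plexus transcripts (0.123). The spread is estimated over all 20 libraries, so leaving out a knockin library also changes the wild-type test. Without knockin PBS replicate 5 or knockin dexamethasone replicate 1, 2 or 5 the wild-type log2 fold change stayed at -0.34.

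Slc7a10 encodes Asc-1, an exchanger of small neutral amino acids that also carries glycine and D-serine, both co-agonists of the NMDA receptor (ENSMUSG00000030495.13, mm39 chromosome 7, 34885810 to 34900539, plus strand). It had 24.3, 27.2, 25.6, 27.0 and 25.9 CPM in knockin dexamethasone libraries, against 28.8, 28.6, 35.9, 27.8 and 31.1 CPM in knockin PBS libraries. Wild-type libraries gave 27.1, 27.4, 25.3, 24.8 and 25.5 CPM in wild-type dexamethasone libraries, against 27.5, 26.8, 31.5, 32.8 and 32.7 CPM in wild-type PBS libraries. The groups did not overlap in knockin mice and overlapped in wild-type mice through PBS replicate 2. The log2 fold change was -0.22 (SE 0.07, adjusted p = 0.0271 by edgeR) in knockin and -0.21 (SE 0.07, adjusted p = 0.0417 by edgeR) in wild-type mice. The knockin call was lost without PBS replicate 3 or 5 or dexamethasone replicate 1 or 3 (edgeR adjusted p from 0.0530 to 0.135). The wild-type call was lost without PBS replicate 3, 4 or 5 or dexamethasone replicate 1, 3, 4 or 5 (0.0501 to 0.133). It was also lost without the libraries richest in choroid plexus transcripts (0.117), by limma-voom (0.0688) and with the replicate number as a block (0.0539). Lrp3, on the opposite strand, overlaps 11.2% of the exonic bases of Slc7a10 and was at 75.6 CPM.

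Slc7a8, which encodes LAT2, a broader relative of LAT1, did not pass, with a log2 fold change of -0.10 (SE 0.04, adjusted p = 0.134 by edgeR) in knockin and -0.08 (SE 0.04, adjusted p = 0.281 by edgeR) in wild-type mice. Slc7a6 and Slc7a7 encode exchangers of cationic for neutral amino acids, of which y+LAT1, the product of Slc7a7, is known from kidney, gut and macrophages. Slc7a6 had log2 fold changes of 0.06 in knockin and 0.00 in wild-type mice, not called. Oxa1l, on the opposite strand and at 34.1 CPM, overlaps 8.82% of the exonic bases of Slc7a7. Slc7a7 had 2.37, 1.92, 2.49, 2.35 and 2.12 CPM in knockin dexamethasone libraries, against 2.28, 1.71, 2.07, 1.80 and 2.26 CPM in knockin PBS libraries, and 1.62, 2.11, 2.05, 1.07 and 2.23 CPM in wild-type dexamethasone libraries, against 2.51, 2.38, 2.16, 2.05 and 1.89 CPM in wild-type PBS libraries. Its groups overlapped, and its log2 fold changes of 0.17 in knockin and -0.25 in wild-type mice differed by 0.42 (SE 0.22, edgeR unadjusted p = 0.0668, adjusted p = 1.0).

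As a share of the summed TPM of the 6 light chains, Slc7a5 made up 37.2 ± 1.86% in knockin dexamethasone, 27.3 ± 2.42% in knockin PBS, 37.7 ± 2.59% in wild-type dexamethasone and 27.6 ± 2.58% in wild-type PBS libraries (SD, n = 5 each). Its lowest dexamethasone share, 33.9%, was above its highest PBS share, 31.5%. Slc7a8 held 30.3 ± 1.27% in knockin dexamethasone and 29.1 ± 2.20% in wild-type dexamethasone libraries, below Slc7a5, against 33.2 ± 1.83% in knockin PBS and 32.3 ± 1.03% in wild-type PBS libraries, where it had the largest mean share. Slc7a10 held 16.6 ± 0.535% in knockin dexamethasone, 19.8 ± 1.62% in knockin PBS, 16.3 ± 0.285% in wild-type dexamethasone and 19.8 ± 1.38% in wild-type PBS libraries. For Slc7a11 the shares were 6.76 ± 0.736%, 10.8 ± 0.973%, 8.20 ± 0.869% and 11.0 ± 1.32% in the same order. The TPM ratio of Slc3a2 to the summed light chains was 0.463 ± 0.0137, 0.477 ± 0.0173, 0.451 ± 0.0100 and 0.474 ± 0.00831, again in that order. Shares of a sum are tied to each other, so a higher share of Slc7a5 lowers the rest, and transcript shares do not measure assembled exchangers.

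**Figure D4:**
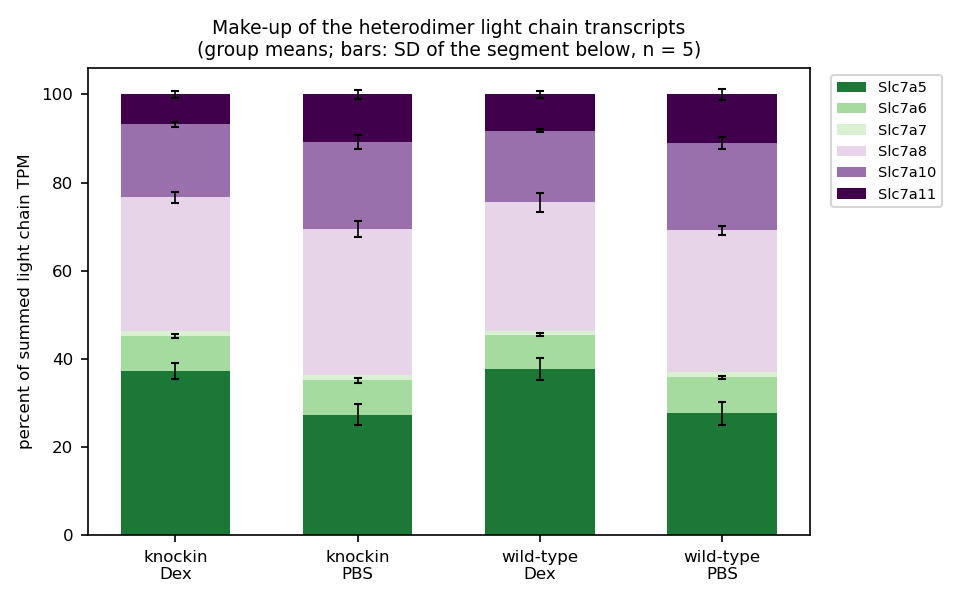
Share of each light chain gene in the summed TPM of Slc7a5, Slc7a6, Slc7a7, Slc7a8, Slc7a10 and Slc7a11, as stacked means of 5 libraries per group; each black bar is the SD of the segment below it (not drawn for Slc7a7). Slc7a5, at the bottom, takes 37.2% and 37.7% with dexamethasone in knockin and wild-type mice, against 27.3% and 27.6% with PBS, and Slc7a10 and Slc7a11 at the top are thinner with dexamethasone than with PBS.

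Of the 5 cationic carriers and their relatives, 1 passed in each genotype. Slc7a1, Slc7a2 and Slc7a3 encode CAT1, CAT2 and CAT3, carriers of arginine, lysine and ornithine, and none was called, with log2 fold changes between -0.04 and 0.10 in knockin and between -0.11 and 0.09 in wild-type mice. Slc7a4 and Slc7a14, relatives by sequence whose transport is less settled, were slightly higher with dexamethasone, each called in 1 genotype by the fit to all libraries. Slc7a4 had 59.4, 62.3, 63.1, 63.1 and 62.2 CPM in knockin dexamethasone libraries, against 58.4, 54.4, 49.3, 54.5 and 61.9 CPM in knockin PBS libraries. In wild-type mice it had 64.3, 63.7, 64.6, 66.1 and 61.3 CPM in wild-type dexamethasone libraries, against 62.9, 57.9, 48.3, 48.8 and 59.0 CPM in wild-type PBS libraries. Its groups overlapped at their edges, and its log2 fold change was 0.16 (SE 0.06, adjusted p = 0.114 by edgeR) in knockin mice, not called, and 0.21 (SE 0.06, adjusted p = 0.0326 by edgeR) in wild-type mice, called.

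Slc7a14 had 290.0, 307, 281, 299 and 306 CPM in knockin dexamethasone libraries, against 272, 273, 233, 278 and 283 CPM in knockin PBS libraries. Its wild-type levels were 271, 279, 297, 290.0 and 303 CPM in wild-type dexamethasone libraries, against 263, 271, 270.0, 269 and 253 CPM in wild-type PBS libraries. Only PBS replicate 5 reached the dexamethasone range in knockin mice, and in wild-type mice the groups met at 271 CPM. The response was, as a log2 fold change, 0.15 (SE 0.04, adjusted p = 0.0294 by edgeR) in knockin mice, called, and 0.12 (SE 0.04, adjusted p = 0.105 by edgeR) in wild-type mice, not called. The differences between genotypes were -0.05 for Slc7a4 and 0.03 for Slc7a14 (edgeR adjusted p = 1.0 for both). The Slc7a4 call in wild-type mice was lost without wild-type PBS replicate 3 or 4 or any of wild-type dexamethasone replicates 1 to 4 (adjusted p from 0.0660 to 0.115), without both knockin libraries numbered 4 (0.0571), without the libraries richest in choroid plexus transcripts (0.108) and with wild-type libraries alone (0.0729). In knockin mice Slc7a4 was called without PBS replicate 5 (0.19, adjusted p = 0.0457). The Slc7a14 call in knockin mice was lost without knockin PBS replicate 3 or knockin dexamethasone replicate 2, 4 or 5 (adjusted p from 0.0722 to 0.112), without the liver-rich wild-type pair (0.0506) or both knockin libraries numbered 4 (0.0611), without the libraries richest in choroid plexus transcripts (0.0936) and with knockin libraries alone (0.0734). In wild-type mice Slc7a14 was called without knockin PBS replicate 3 (0.12, adjusted p = 0.0331).

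Of the 4 sodium- and chloride-coupled carriers, Slc6a9 fell in both genotypes. It encodes GlyT1, which clears glycine from around glutamatergic synapses (ENSMUSG00000028542.18, mm39 chromosome 4, 117691703 to 117726502, plus strand). It had 19.1, 18.4, 17.0, 14.4 and 18.6 CPM in knockin dexamethasone libraries, against 22.5, 21.2, 25.3, 19.0 and 23.8 CPM in knockin PBS libraries, and the highest dexamethasone library was just above the lowest PBS library, replicate 4. The wild-type values were 15.6, 19.5, 17.9, 17.5 and 19.5 CPM in wild-type dexamethasone libraries, against 21.2, 22.0, 21.6, 23.0 and 20.6 CPM in wild-type PBS libraries, without overlap. The fitted log2 fold change was -0.35 (SE 0.08, adjusted p = 0.0029 by edgeR) in knockin and -0.27 (SE 0.08, adjusted p = 0.0275 by edgeR) in wild-type mice. The knockin call held in all 30 other settings. The wild-type call was lost without PBS replicate 2, 3 or 4 or dexamethasone replicate 1 or 4 (edgeR adjusted p from 0.0503 to 0.107). It was also lost without both liver-rich PBS libraries (0.0635) and without the libraries richest in choroid plexus transcripts (0.0739). Ccdc24, on the opposite strand and at 1.30 CPM, shares 38.8% of the exonic bases of Slc6a9.

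Slc6a6, the taurine carrier TauT, averaged 156 ± 15.5 CPM in knockin dexamethasone, 175 ± 19.9 in knockin PBS, 161 ± 10.9 in wild-type dexamethasone and 185 ± 17.3 in wild-type PBS libraries (SD, n = 5 each). Its log2 fold changes were -0.17 (SE 0.08, adjusted p = 0.259 by edgeR) in knockin and -0.20 (SE 0.08, adjusted p = 0.179 by edgeR) in wild-type mice, not called, and it was called lower in knockin mice without knockin PBS replicate 4 (-0.24, adjusted p = 0.0355). In wild-type mice Slc6a6 was called lower without PBS replicate 1 (-0.26, adjusted p = 0.0475), without both liver-rich libraries (-0.29, adjusted p = 0.0481) or without both knockin libraries numbered 4 (-0.20, adjusted p = 0.0428). Slc6a15, the neutral carrier B0AT2 of neurons, had log2 fold changes of -0.09 in knockin and -0.06 in wild-type mice, not called. Slc6a17 was at 0.02 (95% interval -0.05 to 0.10) in knockin and 0.04 (-0.04 to 0.12) in wild-type mice. The proton-coupled Slc36a1, which encodes PAT1, a lysosomal exporter of glycine, alanine and proline, and its relative Slc36a4 were at 0.07 and 0.06 in knockin and 0.07 and 0.07 in wild-type mice, not called.

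The facilitative SLC43 family held the largest rises among the tested transporters. Slc43a1 encodes LAT3, a sodium-independent carrier of leucine and other branched amino acids, and Slc43a3 is a relative known in human cells as a carrier of purine nucleobases. They lie close to each other on the plus strand of chromosome 2 (mm39, 84669194 to 84693938 for Slc43a1, ENSMUSG00000027075.17, and 84767008 to 84788853 for Slc43a3, ENSMUSG00000027074.15). Slc43a3 had 2.93, 6.13, 5.08, 5.54 and 3.25 CPM in knockin dexamethasone libraries, against 0.960, 0.738, 1.06, 1.00 and 0.957 CPM in knockin PBS libraries. Wild-type mice had values of 7.13, 6.26, 1.67, 5.06 and 3.01 CPM in wild-type dexamethasone libraries, against 1.42, 0.953, 1.27, 0.684 and 1.14 CPM in wild-type PBS libraries. Every dexamethasone library was above every PBS library in both genotypes, and wild-type dexamethasone replicate 3 was nearest to them. This was a log2 fold change of 2.26 (SE 0.36, adjusted p = 0.0002 by edgeR) in knockin and 2.02 (SE 0.34, adjusted p = 0.000498 by edgeR) in wild-type mice.

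Slc43a1 was rarer, with 12 to 40 read pairs per dexamethasone library and 2 to 13 per PBS library. Its levels were 0.796, 1.12, 0.623, 1.40 and 1.03 CPM in knockin dexamethasone libraries, against 0.284, 0.184, 0.318, 0.520 and 0.174 CPM in knockin PBS libraries. In wild-type mice they were 1.04, 1.15, 0.648, 1.15 and 0.986 CPM in wild-type dexamethasone libraries, against 0.284, 0.403, 0.190, 0.152 and 0.293 CPM in wild-type PBS libraries. The groups did not overlap in either genotype. The log2 fold change was 1.66 (SE 0.30, adjusted p = 0.000252 by edgeR) in knockin and 1.80 (SE 0.30, adjusted p = 0.000143 by edgeR) in wild-type mice, and the calls held in the 29 other settings that tested the gene. Slc43a2, which encodes LAT4 and is far more abundant, at 29.7 TPM, had 66.3, 74.5, 67.2, 94.0 and 65.7 CPM in knockin dexamethasone libraries, against 68.1, 75.3, 82.2, 114 and 71.0 CPM in knockin PBS libraries. It averaged 65.9 ± 1.71 CPM in wild-type dexamethasone and 70.2 ± 2.79 CPM in wild-type PBS libraries (SD, n = 5 each). The knockin libraries numbered 4 were the highest of both knockin groups, and the log2 fold changes of -0.16 in knockin and -0.09 in wild-type mice were not called.

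**Figure D5:**
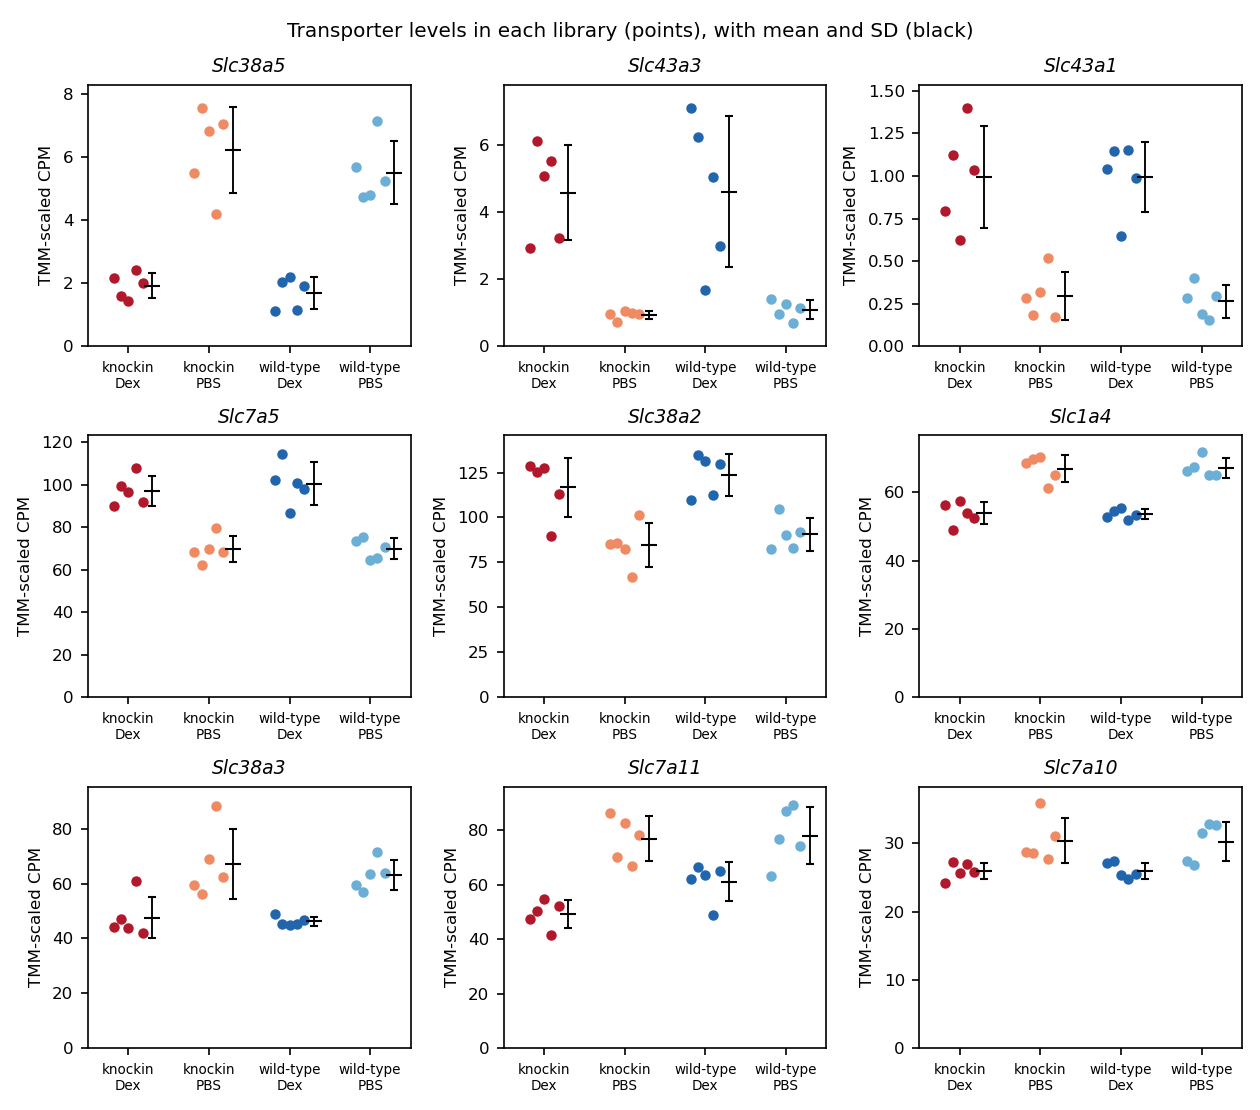
TMM-scaled CPM of 9 transporters called in both genotypes, each point a library in replicate order, with the mean and SD of 5 libraries in black; groups run from knockin dexamethasone to wild-type PBS. Slc43a3, Slc43a1 and Slc7a5 are higher and Slc38a5 and Slc1a4 lower with dexamethasone without overlap in both genotypes, while Slc38a2, Slc38a3, Slc7a10 and Slc7a11 overlap in 1 genotype each.

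The remaining comparisons ask whether the full-length receptor alone gives transporter levels or responses unlike those of wild-type mice. No transporter was called between knockin and wild-type under dexamethasone or under PBS, nor for a difference of the dexamethasone responses, and 0% of all genes were (edgeR, DESeq2 and limma-voom each called 0). At an unadjusted p below 0.05 edgeR had 2 transporters under dexamethasone, 1 under PBS and 0 for the difference of responses, out of 33, where 4.44%, 3.61% and 2.83% of all genes were. Over all genes the unadjusted counts were 828, 673 and 527 by edgeR, 698, 586 and 424 by DESeq2 and 1111, 636 and 641 by limma-voom. The 2 dexamethasone responses share no library. Their log2 fold changes had the same sign for 29 of 33 transporters, differed by a median of 0.03, and correlated across the 33 genes with Pearson's r = 0.97. Genes are not independent replicates, and r describes these transporters only. It weighs the largest changes most, here those of Slc43a3, Slc43a1 and Slc38a5, and was not computed without them. In both genotypes 13 of the 33 log2 fold changes lay within 0.1 of 0. The share of all tested genes with the same sign in both genotypes was not computed. Of the genes called in both genotypes, Slc38a5 and Slc7a5 had 95% intervals of the difference, knockin minus wild-type, of -0.53 to 0.56 and -0.25 to 0.16. Those of Slc1a4 and Slc43a3 were -0.12 to 0.14 and -0.83 to 1.31. Each interval holds 0 and gives the differences compatible with these libraries.

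The 2 transporters with an unadjusted p below 0.05 between genotypes were both lower in knockin mice. Slc7a2 had 43.9, 44.3, 44.7, 32.6 and 41.7 CPM in knockin dexamethasone libraries, against 50.5, 46.8, 52.1, 48.5 and 51.2 CPM in wild-type dexamethasone libraries. Under PBS it had 44.1, 40.4, 44.9, 39.0 and 44.3 CPM in knockin libraries, against 47.7, 48.8, 49.6, 48.1 and 44.5 CPM in wild-type libraries. The genotypes did not overlap under dexamethasone, which held for 1 of 33 transporters and 0.788% of all genes, and overlapped under PBS, where 0.670% of all genes did not. The log2 difference, knockin over wild-type, was -0.27 under dexamethasone (SE 0.06, unadjusted p = 0.000305, edgeR adjusted p = 0.979) and -0.17 under PBS (SE 0.06, unadjusted p = 0.0157, edgeR adjusted p = 1.0). It stayed between -0.30 and -0.19 under dexamethasone in the 30 other settings and was called in none.

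Slc7a11 had 47.6, 50.4, 54.8, 41.6 and 52.1 CPM in knockin dexamethasone libraries, against 62.1, 66.5, 63.6, 49.0 and 65.0 CPM in wild-type dexamethasone libraries, which overlap through wild-type replicate 4. The log2 difference was -0.32 (SE 0.10, unadjusted p = 0.00662, edgeR adjusted p = 1.0), while under PBS it was -0.02. Its dexamethasone response was -0.65 in knockin and -0.34 in wild-type mice, a difference of -0.30 (95% interval -0.61 to 0.01, unadjusted p = 0.0536, edgeR adjusted p = 1.0). The comparisons share the knockin dexamethasone and wild-type dexamethasone libraries, so these values are not separate evidence.

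Genes around the transporters were read from 3 further lists. Of 37 other amino acid carriers 26 were tested, and 5 passed in knockin mice (4 higher, 1 lower) and 3 in wild-type mice (3 higher, 0 lower), which is 19.2% and 11.5% beside 10.0% and 9.21% of all genes tested. Slc25a13, the mitochondrial aspartate-glutamate carrier citrin, averaged 5.84 ± 1.39 CPM in knockin dexamethasone, 1.98 ± 0.345 in knockin PBS, 6.67 ± 2.18 in wild-type dexamethasone and 2.19 ± 0.326 in wild-type PBS libraries (SD, n = 5 each; log2 fold change 1.56, edgeR adjusted p = 6.66e-05 in knockin and 1.57, edgeR adjusted p = 5.4e-05 in wild-type). Slc25a29, a mitochondrial carrier of basic amino acids, rose by 0.30 and 0.27 on the log2 scale in knockin and wild-type mice. Slc25a18 passed at -0.21 in knockin mice, close to the threshold (edgeR adjusted p = 0.0499). In wild-type mice it averaged 39.2 CPM with dexamethasone and 43.7 CPM with PBS and was not called. The knockin count was 2 or 3 without knockin PBS replicate 1 or 3, without knockin dexamethasone replicate 1 or 3, or without both knockin libraries numbered 4.

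Of 33 genes of mTORC1, its amino acid sensing and its brakes, all tested, 5 passed in knockin mice (4 higher, 1 lower) and 4 in wild-type mice (4 higher, 0 lower), which is 15.2% and 12.1% beside 10.0% and 9.21% of all genes tested. Castor1, a cytosolic arginine sensor that restrains mTORC1, averaged 10.4 ± 3.02 CPM in knockin dexamethasone, 2.67 ± 0.396 in knockin PBS, 9.30 ± 2.07 in wild-type dexamethasone and 2.46 ± 0.312 in wild-type PBS libraries (SD, n = 5 each; log2 fold change 1.92, edgeR adjusted p = 1.64e-06 in knockin and 1.92, edgeR adjusted p = 2.39e-06 in wild-type). Ddit4, an mTORC1 inhibitor also called REDD1, rose by 0.85 and 0.63 on the log2 scale in knockin and wild-type mice, and Sesn1, a sestrin, by 0.41 and 0.33. Sesn3, another sestrin, passed at -0.23 in knockin mice and Castor2 at 0.18 in wild-type mice. The counts fell to 3 in knockin mice without dexamethasone replicate 2 or 3, and to 2 in wild-type mice without PBS replicate 3 or dexamethasone replicate 2 or 5.

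Of 27 genes of the amino acid shortage response and serine synthesis 26 were tested, and 6 passed in knockin mice (4 higher, 2 lower) and 3 in wild-type mice (3 higher, 0 lower), which is 23.1% and 11.5% beside 10.0% and 9.21% of all genes tested. Mthfd2, a mitochondrial folate enzyme, rose by 1.01 and 1.32 on the log2 scale in knockin and wild-type mice, and Gpt2, the mitochondrial alanine aminotransferase, by 0.77 and 0.77. Cth, which makes cysteine from cystathionine, passed at 0.75 and Phgdh, the first enzyme of serine synthesis, at -0.25 in knockin mice. Aldh18a1, an enzyme of proline synthesis, passed at -0.23 in knockin mice. Psat1, a later enzyme of serine synthesis, rose by 0.17 in knockin and 0.16 in wild-type mice. Median log2 fold changes of these 3 lists lay between 0.00 and 0.04 in both genotypes, beside 0.00 for all genes. For the 3 lists no gene passed between genotypes or for the difference of responses.

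Markers of the cell types that carry these transporters were counted in the same way, against the same 10.0% of all genes called in knockin and 9.21% in wild-type mice. In dexamethasone against PBS, 3 of 9 endothelial markers passed in knockin mice (Ocln higher, Cdh5 and Flt1 lower) and 1 in wild-type mice (Tie1, lower), and 2 of 8 astrocyte markers passed in each (Aldh1l1 higher, Aqp4 lower). Of 8 microglia markers 4 were lower in knockin mice, and 4 were lower and 1 higher in wild-type mice. Their sum was 360.5 to 387 CPM in knockin dexamethasone, 406 to 461 in knockin PBS, 372 to 404 in wild-type dexamethasone and 418 to 483 in wild-type PBS libraries, without overlap between dexamethasone and PBS in either genotype and with no marker at 0. The 6 mural cell markers, 2 of them called in knockin mice (Abcc9 higher, Pdgfrb lower), summed to 256 to 284, 269 to 335, 268 to 304 and 312 to 347 CPM in the same order. The other lists with calls were oligodendrocytes (2 of 7 in knockin and 1 in wild-type mice) and oligodendrocyte precursors (2 of 5 and 1). Of the 6 general and 6 hippocampal neuron markers, the 8 choroid plexus markers and the 6 meningeal fibroblast markers none passed in either genotype. The same held for the 5 red blood cell markers and for the 11 tested of 12 listed liver markers (here with Ttr). Whether shifts between cell types enter the transporter values was not tested.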

How the data were processed

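Hippocampal poly(A) RNA was sequenced as 75-base read pairs in 20 libraries. Per the file headers, the deposited counts are whole read pairs per gene, made by the authors with featureCounts 2.0.6 on GENCODE M34 basic genes, with no option set for strand, multi-mapping or multiply overlapping reads. The submitters' processing notes name STAR 2.5.1, mm39, Subread 1.5.1 and DESeq2 1.38.3 (how reads were trimmed or aligned is not given in the sources used here). Symbols were matched for 51884 of 57126 gene IDs.

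From the counts, genes with at least 10 counts by edgeR's filter (minimum total 15) were kept, scaled by TMM and fitted with edgeR 4.0.16 (R 4.3.3), 1 term per group over all 20 libraries, with the robust quasi-likelihood test and Benjamini-Hochberg adjustment. Residual degrees of freedom were 16 and the biological coefficient of variation 7.08%. CPM and TPM were computed here, and SD is over the 5 libraries that the labels call biological replicates of a group. Precision is limited by 11493014 to 48267708 counts per library; genes near 1 CPM rest on few reads. Alternatives were DESeq2 1.42.0, limma-voom (limma 3.58.1), other filters and scaling, fits to the compared libraries, a replicate block, and leaving out each library or sets of libraries. In simulated data the procedure recovered 99 of 100 log2 fold changes of size 1 and 84 of 100 of size 0.5, and called 8 unchanged genes. The changed genes were drawn from well-counted ones. Smaller changes, and changes of rare genes, were not simulated. No libraries were duplicates (chi-square per gene 2.56 to 12.7 over 40 pairs). The members and lists were chosen with earlier results of these data known. All 34 transporters could be named, with, per further list and comparison, up to 4 called genes of largest change; Psat1 and Aldh18a1 in knockin mice were chosen after their values were seen. A called gene among the further carriers is counted but not reported here by name.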

Additional observations from a re-analysis of the deposited data

Results flagged for a closer look

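Each tested transporter was examined in each group of 5 libraries for a highest or lowest library whose gap to its nearest neighbour exceeded 0.71 of the group's range. Chance alone flags about 1 in 20 groups, and 10 of 132 groups were flagged. In knockin dexamethasone libraries, replicate 4 was highest for Slc38a3 (60.8 CPM, next 47.1) and lowest for Slc7a2 (32.6, next 41.7), and replicate 1 was lowest for Slc7a4 (59.4, next 62.2). In knockin PBS libraries, replicate 4 was highest for Slc1a5 (3.60 CPM, next 2.12) and lowest for Slc6a6 (141, next 179), and replicate 3 was highest for Slc38a1 (179, next 170.1) and lowest for Slc7a14 (233, next 272). In wild-type dexamethasone libraries, replicate 4 was lowest for Slc7a11 (49.0 CPM, next 62.1) and highest for Slc6a15 (95.7, next 90.1). In wild-type PBS libraries, replicate 3 was highest for Slc6a15 (111 CPM, next 93.8).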

How the results depend on the processing

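Across 30 alternatives (29 planned and 1, leaving out both knockin libraries numbered 4, chosen after seeing the data), no called transporter changed sign, and 307 values that were not called either way did. In knockin mice the 12 transporter calls ranged from 8 to 13, from 10 to 13 when any library was left out; the 8 came from fitting the knockin libraries alone. In wild-type mice the 11 calls ranged from 6 to 12, also when any library was left out; without the libraries high in choroid plexus transcripts there were 6. The main fit did not treat libraries with the same replicate number as paired. Correlations of same-numbered libraries ran from -0.11 to 0.25, highest for the knockin libraries numbered 4. Whether libraries of a number share handling was not tested. With the replicate block, 12 and 10 transporters were called in knockin and wild-type mice, Slc7a10 being lost in wild-type mice. The counts of transporters called between genotypes or for the difference of responses were 0 in all alternatives.

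Of the further carriers 3 instead of 5 were called in knockin mice with no low-count filter, and 2 or 3 without knockin PBS replicate 1 or 3, knockin dexamethasone replicate 1 or 3 or both libraries numbered 4. Of the mTORC1 genes 3 instead of 5 were called in knockin mice with knockin libraries alone, without the choroid-high libraries or without dexamethasone replicate 2 or 3, and 2 instead of 4 in wild-type mice with no low-count filter or without PBS replicate 3 or dexamethasone replicate 2 or 5. The cause was not tested. Slc43a1, Slc38a4 and Slc3a1 are limited by depth.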
